A study of Mus musculus with 8 samples.

Results

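Cytosolic ribosomal protein genes were described in the hearts of mice that overexpress Plin5, together with Rpl3l, the striated muscle form of a large subunit protein. Members were the rows of the value table that carry 1 gene symbol of the Rps or Rpl pattern, or Rplp0, Rplp1, Rplp2 or Rpsa, with the row of highest mean over all hearts kept for each gene. This gave 61 of the 19938 genes with a row of their own. Of these, 21 belong to the small subunit list, 33 to the large subunit list and 6 to the paralogue forms, and Rpl32l is in none of them. Gene expression had been measured on Affymetrix whole-transcript arrays in 4 MHC-Plin5 and 4 control hearts. The mice were males on the c57/bl background, their hearts were harvested at 12 weeks, and the heart samples are labelled as fasted. MHC-Plin5 mice carry extra Plin5, the coat protein perilipin 5 of lipid droplets, and the series title restricts its overexpression to cardiomyocytes. The labels do not spell out MHC, the founder line, or whether controls were littermates. Pooling is not mentioned in the labels, so 1 array was taken as 1 animal.

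A cytosolic ribosome consists of a small subunit, which reads the messenger RNA, and a large subunit, which joins the amino acids. Each subunit is built in the nucleolus from ribosomal RNA and a fixed set of ribosomal proteins. Rpl3 is a large subunit protein that reaches towards the site where peptide bonds are made. In heart and skeletal muscle the paralogue Rpl3l takes its place in part of the ribosomes. Messenger RNAs of ribosomal proteins and of several elongation factors typically begin with an unbroken run of C and T, through which their translation answers to growth signals.

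Of the 10 members with the largest positive differences, Rps4l was not looked up and Rplp1 has no entry in the promoter table. The bases around the gene start are shown for the others of these 10 and for Rpl3l, the member with the largest difference. They are shown, with the elongation factor Eef1a1, for the run of C and T that such genes are known for. Each window runs from 20 bases before the start to the 20th base of the gene, in RefSeq sequence of GRCm38.p6. Capitals mark the longest unbroken run of C and T, read on the gene's own strand, that touches the 10 bases on either side of the start. The windows lie at chr17:24727806-24727845 on the plus strand for Rpl3l, chr10:23787190-23787229 (minus) for Rps12, chr17:33824543-33824582 (minus) for Rps28 and chr9:66946066-66946105 (plus) for Rps27l. For Rps9 the window is chr7:3704021-3704060 (plus), for Rps25 chr9:44407694-44407733 (plus), for Rpsa chr9:120127746-120127785 (plus) and for Rpl38 chr11:114668560-114668599 (plus). For Rpl4 it is chr9:64173367-64173406 (plus) and for Eef1a1 chr9:78481705-78481744 (minus).
Rpl3l: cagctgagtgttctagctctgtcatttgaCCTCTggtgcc
Rps12: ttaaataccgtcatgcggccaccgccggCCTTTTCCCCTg
Rps28: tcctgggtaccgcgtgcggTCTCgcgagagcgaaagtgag
Rps27l: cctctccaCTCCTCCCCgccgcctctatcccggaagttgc
Rps9: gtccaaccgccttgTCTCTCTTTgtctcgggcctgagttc
Rps25: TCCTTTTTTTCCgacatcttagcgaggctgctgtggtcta
Rpsa: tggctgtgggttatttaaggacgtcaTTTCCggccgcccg
Rpl38: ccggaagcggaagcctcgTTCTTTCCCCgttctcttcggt
Rpl4: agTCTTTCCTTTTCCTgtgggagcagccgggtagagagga
Eef1a1: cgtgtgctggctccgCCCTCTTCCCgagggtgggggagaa

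The run was 14 bases long at Rpl4 and at Rps25, where it begins before the window, 11 at Rps12, 10 at Rpl38 and at Eef1a1, and 9 at Rps27l and at Rps9. It was 5 at Rpl3l and at Rpsa and 4 at Rps28. The median was 6 in the small subunit list, 6.5 in the large one, 5 in the paralogue forms and 4 over all promoters, so the run at Rpl3l equals the median of its class. A run of at least 8 bases was present in 10 of 27 promoters of the small subunit list (37.0%) and in 18 of 40 of the large subunit list (45.0%). It was present in 2 of 9 promoters of the paralogue forms (22.2%). Over all 32851 promoters of the RefSeq table the share was 13.7%. Entries were found for 49 of the 61 members, with 58 promoters. RefSeq starts can lie some bases from the true start, so a missing run says only that these letters are not in this window. The muscle E-box CAGCTG, which reads the same on both strands, begins 20 bases before the start of Rpl3l. In the promoter entries, which reach from 250 bases before to 50 after the start, it is present in 16.3% of all, in 0 of 27 small subunit entries, in 2 of 40 large subunit entries (5.0%) and in 2 of 9 entries of the paralogue forms (22.2%). In the elongation list it is present in 7 of 32 (21.9%).

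Plin5 itself, the targeted gene, stood at 8.92, 8.87, 9.04 and 8.58 in control 1 to 4 and at 12.17, 12.69, 12.63 and 12.08 in MHC-Plin5 1 to 4, on the log2 scale. Every MHC-Plin5 heart lay above every control heart, which matches the genotype labels.

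Rpl3l was 6.49-fold lower in the MHC-Plin5 hearts. Its log2 level was 10.78, 10.75, 10.72 and 10.23 for controls 1 to 4, and 8.51, 7.17, 6.54 and 9.46 for MHC-Plin5 hearts 1 to 4. All MHC-Plin5 hearts lay below all control hearts, and they differed widely among themselves, with the highest level in heart 4 and the lowest in heart 3. The means were 7.92 ± 1.31 against 10.62 ± 0.26 (SD, n = 4 each). The log2 difference of -2.70 (SE 0.50) had an adjusted p of 0.0172 in limma over all 19938 genes. Permuting the 8 hearts exactly gave a two-sided p of 0.0286, the smallest possible in this design. Rpl3l was the 1 member called lower, at an adjusted p under 0.05, against 1.17% of all genes. The call ended without control 1 (adjusted p = 0.0606), control 2 (0.059), control 3 (0.0567) or MHC-Plin5 2 (0.0583) and with an intensity trend and robust variances (0.0768). The differences under these alternatives lay between -2.70 and -2.45.

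For Rpl3, the general paralogue, no row of the table carries its symbol alone. The 7 rows that name Rpl3 also name Gm5879, which RefSeq lists as a pseudogene, and 2 of them name 5 symbols. Their values cannot be assigned to Rpl3 alone, and the rows largely follow each other, with 2 of them identical in every heart. The row of highest mean among the 5 that name only Rpl3 and Gm5879 was taken, a choice made after the rows were seen. It stood at 10.11, 10.35, 10.29 and 10.74 in control 1 to 4 and at 11.36, 11.58, 11.37 and 10.68 in MHC-Plin5 1 to 4. MHC-Plin5 hearts 1 to 3 lay above all controls, while MHC-Plin5 4 lay just below control 4. The means were 11.25 ± 0.39 against 10.37 ± 0.27 (SD, n = 4 each), a log2 difference of 0.88 (SE 0.20).

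In limma over all 35556 rows of the table the adjusted p of this Rpl3 row was 0.0962, so it was not called. The exact two-sided permutation p was 0.0571. Over the 7 rows the differences ran from 0.83 to 0.97 and the adjusted p from 0.0414 to 0.132, with 1 row called higher, against 0.619% of all rows. In the same fit over all rows, which adds rows with several symbols or none, Rpl3l had the same difference and an adjusted p of 0.0636 and was not called. It was called when each row with 1 symbol was its own feature. Without MHC-Plin5 4 the difference of the Rpl3 row was 1.07 with an adjusted p of 0.0178 over all rows.

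Both paralogues were then set against each other within each heart, as the log2 value of Rpl3l minus that of the Rpl3 row. Since these are different probe sets, only the change between groups carries meaning, not the level. As a deviation from the mean of the controls it came to 0.42, 0.15, 0.19 and -0.75 for controls 1 to 4. For MHC-Plin5 hearts 1 to 4 it came to -3.09, -4.66, -5.08 and -1.48. The groups did not overlap, and their means differed by -3.58 (SD 0.52 in control and 1.64 in MHC-Plin5 hearts, n = 4 each; exact two-sided permutation p = 0.0286, the smallest possible). Rpl3l alone already gave this p, so it adds no support for a change of the Rpl3 row. MHC-Plin5 4 had the smallest fall of Rpl3l and the lowest Rpl3 row of its group. Among the controls, heart 4 had the lowest Rpl3l and the highest Rpl3 row.

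**Figure D1:**
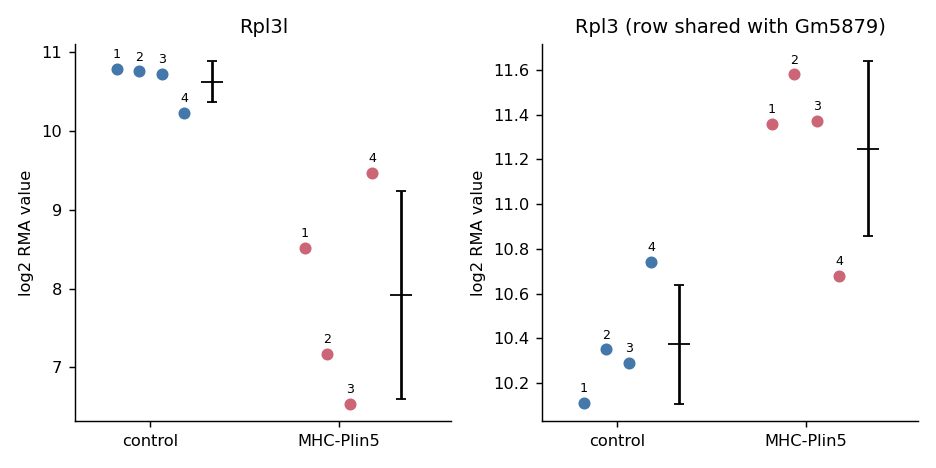
Log2 RMA values of Rpl3l (left) and of the row shared by Rpl3 and Gm5879 (right) in each heart, with heart numbers beside the points and the mean and SD of 4 hearts beside each group. The vertical axes differ in range; Rpl3l lies between 6.54 and 9.46 in MHC-Plin5 hearts, below all controls, and the shared row reaches 11.58 in MHC-Plin5 2.

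Of 8 cardiomyocyte markers, which include Myh6, Tnnt2 and Actc1, 0 were called in either direction, with a median difference of -0.11. The groups did not overlap in Tnni3 (-0.16), Pln (-0.11) and Mybpc3 (0.23). Over all genes, the groups lay apart with MHC-Plin5 lower in 5.0% and with MHC-Plin5 higher in 6.24%. The summed level of the list on the log2 scale lay between 16.57 and 16.61 in control hearts and between 16.41 and 16.62 in MHC-Plin5 hearts. Their lowest mean level was 12.37, so the defining markers of cardiomyocytes were present in all hearts. The mean deviation of these markers from the controls was lowest in MHC-Plin5 3 (-0.20) and MHC-Plin5 2 (-0.11), the hearts with the lowest Rpl3l. The 7 skeletal muscle markers had a summed level of 13.05 to 13.12 in control and of 12.35 to 13.15 in MHC-Plin5 hearts, with 0 called. This sum follows Ckm, with a mean level of 12.84, since the means of the others lay between 5.06 and 7.07. It is therefore no measure of skeletal muscle in the samples. Atrial markers varied most, from 11.74 to 15.04 in control and from 13.92 to 15.15 in MHC-Plin5 hearts, and fibroblast markers lay at 13.22 to 13.65 and 13.33 to 13.89, with 0 called in both lists. The median difference was 0.97 for atrial and 0.37 for fibroblast markers. Markers of endothelium, smooth muscle, macrophages, lymphocytes, red cells and adipocytes also had 0 called, with median differences of 0.30 for macrophages, -0.49 for adipocytes and -0.13 to 0.04 for the others. The groups did not overlap in the pericyte marker Rgs5 (-0.36), against the 5.0% of all genes given above. The part of these marker shifts in the results was not tested. In whole hearts, fewer cells of a type and less RNA per cell cannot be told apart.

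Among the other paralogue forms, Rps27l and Rps4l were higher in MHC-Plin5 hearts, the 2 members called higher, against 2.08% of all genes. Rps27l, a small subunit form known as a target of p53, stood at 10.88, 11.23, 11.19 and 11.18 in control 1 to 4 and at 11.55, 11.69, 11.67 and 11.48 in MHC-Plin5 1 to 4. Control 1 was the lowest heart, and the groups did not overlap. Between the group means lay 0.48 (SE 0.11, limma adjusted p = 0.0382). Rps4l, a copy related to Rps4x, stood at 7.73, 8.07, 8.32 and 7.90 in control 1 to 4 and at 8.61, 8.77, 8.58 and 8.59 in MHC-Plin5 1 to 4. The MHC-Plin5 hearts lay close together and above all controls, with a log2 difference of 0.63 (SE 0.13, limma adjusted p = 0.025). Rps4x itself had a difference of 0.13 (adjusted p = 0.604).

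In the fit over all rows of the table, 0 members were called, with an adjusted p of 0.0926 for Rps27l and of 0.0729 and 0.0732 for both rows of Rps4l. The call of Rps27l was lost without any single heart but MHC-Plin5 4, with an adjusted p of at most 0.13. The call of Rps4l was lost when control 1, 2 or 4 or MHC-Plin5 heart 2 or 3 was left out, with an adjusted p of at most 0.0909. Rpl7l1, which acts in the assembly of the large subunit, had a log2 difference of -0.09 (SE 0.09). Rpl10l, the testis form of Rpl10, had 0.01 and Rpl39l 0.04, and Rpl32l, outside the lists, had 0.06, none of them called. Rpl39l had a mean level of only 3.58, so its row may hold little signal. Arrays may not tell such copies from their near-identical relatives, so values of the paralogue forms may include signal of other copies.

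The general ribosomal proteins of both subunits had mostly small positive differences, and 0 of their 54 genes were called in either direction by limma at an adjusted p under 0.05, against 2.08% of all genes called higher and 1.17% called lower. Of the 21 small subunit genes 20 had a positive difference, and of the 33 large subunit genes 32 had one. Among all genes tested 42.5% had a positive difference, and 54.3% of those with a mean log2 level of at least 7. The median difference was 0.22 for the small and 0.18 for the large subunit, beside -0.03 for all genes. With an unadjusted p under 0.05, 8 small and 8 large subunit genes were higher and 0 lower, against 8.69% and 7.86% of all genes. The groups did not overlap, with MHC-Plin5 higher, in 6 of 21 small and 11 of 33 large subunit genes, against 6.24% of all genes. Most of these genes have high levels, and the shares were larger among the 8899 genes with a mean log2 level of at least 7. Of those, 1062 lay apart with MHC-Plin5 higher, and 1390 were higher at an unadjusted p under 0.05 in limma. Their median difference was 0.02, and 349 were called higher.

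In the small subunit, Rps12 had the largest difference. It stood at 9.48, 9.78, 9.89 and 9.83 in control 1 to 4 and at 10.18, 10.25, 10.07 and 10.51 in MHC-Plin5 1 to 4, with no overlap between the groups. Its log2 difference was 0.51 (SE 0.13, limma adjusted p = 0.0569). Rps28, at the exit of the messenger RNA channel, had 0.50 (SE 0.15), with its highest level of 10.70 in MHC-Plin5 4. Rps9, which helps to keep decoding accurate, had 0.39, Rps25, needed for some internal ribosome entry sites, 0.38, and Rpsa, which also serves as a laminin receptor, 0.35. The adjusted p of these 4 lay between 0.112 and 0.31. At the other end were Rps19, mutated in Diamond-Blackfan anaemia, with -0.01, Rps6, the substrate of the S6 kinases, with 0.06, Rps2 with 0.08 and Rps29 with 0.09. Rps6 lay between 13.29 and 13.42 in control hearts and between 13.35 and 13.45 in MHC-Plin5 hearts, so the groups overlapped.

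In the large subunit, Rpl38, linked to translation of Hox messages, had a log2 difference of 0.35 (SE 0.11, limma adjusted p = 0.114). Rplp1, of the stalk that recruits elongation factors, had 0.35 (SE 0.13, adjusted p = 0.197). Rpl4 lay at 10.39, 10.54, 10.41 and 10.45 in control 1 to 4 and at 10.74, 10.77, 10.79 and 10.79 in MHC-Plin5 1 to 4. The hearts of each group lay close together with no overlap, and the log2 difference was 0.33 (SE 0.09, adjusted p = 0.0673). Rpl14 (0.31) and Rpl26 (0.30) followed, with overlapping groups. The smallest differences were those of Rpl36 (-0.02), Rplp2 (0.01), Rpl30 (0.03), Rpl28 (0.05) and Rpl41 (0.10). Rpl30 had a mean level of 5.48, below the median of every array, so its row may hold little signal. Rpl12 (0.10) lay as low, at 5.45, while a row naming Rpl12 and Gm32899 lay at 12.26 with 0.30 (limma adjusted p = 0.196 over all rows). Rpl36, Rplp2, Rps19 and Rpl10l changed sign under several alternatives, and Rps29 and Rpl30 without MHC-Plin5 4, so they have no settled direction.

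**Figure D2:**
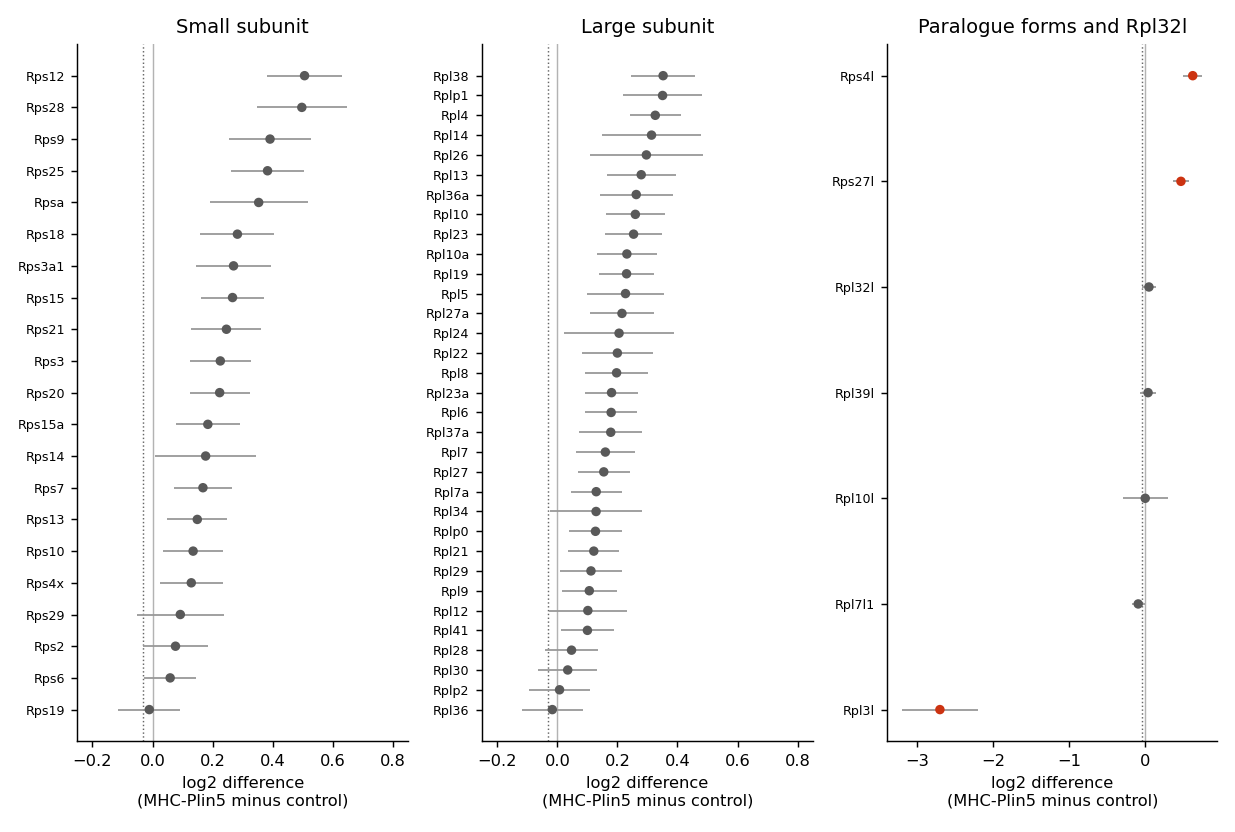
Log2 difference (MHC-Plin5 minus control) of each of the 61 members with its SE from limma, by class. Red points have an adjusted p under 0.05, the dotted line is the median of all genes (-0.03), and the right panel has a wider horizontal scale. Nearly all general ribosomal proteins lie to the right of 0, while Rpl3l stands at -2.70.

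The subunits did not part from each other beyond the spread between hearts. The mean of the small minus that of the large subunit genes deviated from its control mean by -0.07 to 0.05 among the controls. It deviated by 0.05, -0.02, 0.00 and 0.16 for MHC-Plin5 hearts 1 to 4. The group means differed by 0.05, with SDs of 0.05 in control and 0.08 in MHC-Plin5 hearts (n = 4 each). Without MHC-Plin5 4, the highest heart, the difference was 0.01, and without control 1, the lowest, 0.02.

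Hearts differed in how far the ribosomal protein genes stood from the control mean. The median deviation of the small subunit genes was -0.16, 0.09, 0.08 and 0.03 for controls 1 to 4, and 0.21, 0.20, 0.09 and 0.45 for MHC-Plin5 hearts 1 to 4. For the large subunit genes it was -0.07, 0.07, 0.00 and 0.02 for the controls, and 0.17, 0.24, 0.09 and 0.20 for the MHC-Plin5 hearts. MHC-Plin5 3, with the lowest Rpl3l, stood at 0.09 in both subunits. Control 1 was the lowest of the 8 hearts in 16 of 21 small and 22 of 33 large subunit genes, against 2876 of all 19938 genes. MHC-Plin5 4 was the highest in 14 of 21 small and 16 of 33 large subunit genes, against 4283 of all 19938 genes. The median of a whole array was 6.24 for control 2 and 6.18 for MHC-Plin5 4, and from 5.99 to 6.04 for the other 6 hearts. The part of these array medians in the results was not tested beyond the alternatives named. With arrays centred on their medians the median differences were 0.24 for the small and 0.19 for the large subunit.

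**Figure D3:**
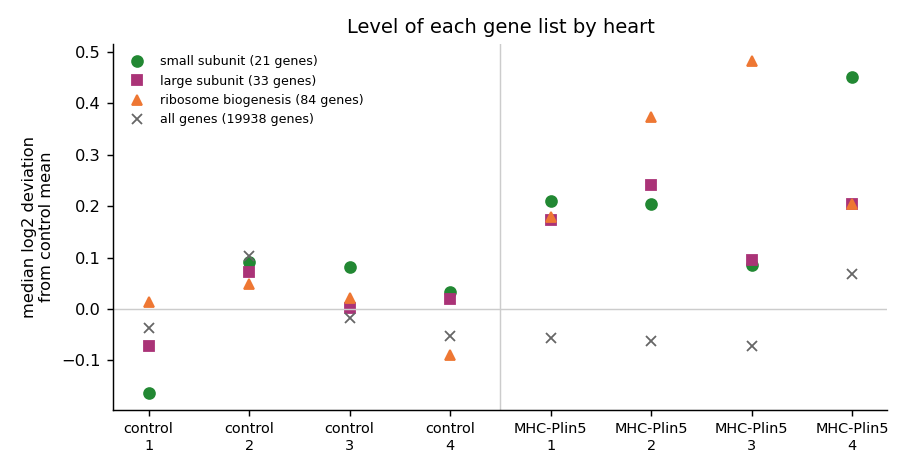
Median log2 deviation from the control mean in each heart for the small subunit, large subunit and ribosome biogenesis lists and for all genes. In the small subunit MHC-Plin5 4 reaches 0.45 and control 1 lies at -0.16, and ribosome biogenesis is highest in MHC-Plin5 3, at 0.48.

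Many ribosomal protein genes share their rows with pseudogenes or neighbours. Of 31 small and 46 large subunit genes listed, 10 and 13 had no row of their own. For 16 of these 23 a row naming other symbols too was measured, and 7 are not analysed here. In the highest-mean row of each, all 16 had a positive difference, with a median of 0.23 when the Rpl3 row is set aside and 0 called. The largest of those 15 was a row naming Rps24 and Gm4832 (0.42, adjusted p = 0.116 over all rows). Another row of the same 2 names was called higher, at 9.13, 9.30, 9.21 and 9.34 in control 1 to 4 and at 9.87, 9.82, 9.72 and 9.79 in MHC-Plin5 1 to 4 (0.56, SE 0.09, limma adjusted p = 0.0262). Among the 39 members with several rows, all rows had a positive difference in 37 and rows of both signs occurred in Rpl21 and Rpl36. Rows of 1 gene are not independent of each other. Over all 239 rows that name a ribosomal protein and another symbol, the groups did not overlap, with MHC-Plin5 higher, in 88, against 5.07% of all rows.

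Several genes that build ribosomes were higher in MHC-Plin5 hearts. Of 84 measured genes of the ribosome biogenesis list, 15 were called higher and 0 lower, against 2.08% and 1.17% of all genes. The median difference was 0.32, beside -0.03 for all genes, and 78 of 84 were positive. Of the 8899 genes with a mean log2 level of at least 7, 349 were called higher and 169 lower, with a median difference of 0.02. The groups did not overlap, with MHC-Plin5 higher, in 32 of the 84 genes of the list. This compares with 6.24% of all genes and 1062 of those 8899. That the list differs from the ribosomal protein genes was not tested. Nhp2, a protein of the particles that guide pseudouridylation of ribosomal RNA, was 2.18-fold higher. It lay at 6.77 to 7.04 in control hearts and at 7.88 to 8.09 in MHC-Plin5 hearts, with no overlap (log2 difference 1.12, SE 0.10, limma adjusted p = 0.000202). Gnl3, the nucleolar GTPase nucleostemin, was 2.06-fold higher, with 7.92, 8.55, 8.59 and 7.80 in MHC-Plin5 1 to 4 and a control mean of 7.17 ± 0.17 (SD, n = 4).

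Rrp12, needed for the export of both subunits, had a log2 difference of 0.95 (SE 0.13), and Bop1 of 0.70 (SE 0.11). Bop1 works in a complex with Pes1, which rose by 0.57 (SE 0.10), and with Wdr12, which had 0.40 and was not called. Grwd1, a chaperone of newly made Rpl3, lay at 6.69 to 6.89 in control hearts and at 7.21, 7.55, 7.68 and 7.48 in MHC-Plin5 1 to 4 (0.68, SE 0.11, limma adjusted p = 0.0104). All MHC-Plin5 hearts lay above all controls in Grwd1. The RNA helicase Ddx21 rose by 0.67 and Bysl, of small subunit maturation, by 0.50. The other 7 called genes were Ddx27, Pno1, Mrto4, Ncl, Nip7, Wdr75 and Ltv1. Of 11 subunits and factors of RNA polymerase I, which makes ribosomal RNA, 0 were called, with differences from -0.09 to 0.77 and a median of 0.12.

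The count of called biogenesis genes was 6 when control 1 or 4 or MHC-Plin5 heart 2 or 3 was left out, 9 without control 2, 5 without control 3 and 24 without MHC-Plin5 4. Genes called higher over the whole series, 415 with all hearts, numbered 177, 238, 170 and 202 without control 1 to 4. They numbered 413, 177, 236 and 614 without MHC-Plin5 1 to 4. Both counts fell without any single control or MHC-Plin5 2 or 3, and both rose without MHC-Plin5 4. Without MHC-Plin5 1 the count of the list rose slightly and that of all genes did not. Why the counts moved was not tested. Pes1 lost its call without control 3 (adjusted p = 0.0508). Ddx21 lost it when control 1, 3 or 4 or MHC-Plin5 heart 2 or 3 was left out (at most 0.072). Bysl lost it without any single heart but MHC-Plin5 1 or MHC-Plin5 4 (at most 0.0915). In the fit over all rows of the table, 6 of the 15 genes were called in their highest-mean row, namely Nhp2, Rrp12, Bop1, Pes1, Grwd1 and Gnl3. Mrto4 was called in another row (limma adjusted p = 0.0499) but not in its highest-mean row (0.0792), so 7 genes had a row called.

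The E-box CACGTG, a site bound by MYC among other factors, is the same on both strands and was present in 18 of 89 promoters of the biogenesis list (20.2%). It was present in 7.15% of all promoters, in 1 of 27 of the small and in 7 of 40 of the large subunit list (17.5%). It is shown for Pes1, a called gene in which it begins at the 3rd base of the gene, with the site in capitals (chr11:3963955-3963994, plus strand, GRCm38.p6, 20 bases to either side of the start).
Pes1: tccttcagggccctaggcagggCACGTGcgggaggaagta
A match of letters is a description of the sequence and does not show binding.

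**Figure D4:**
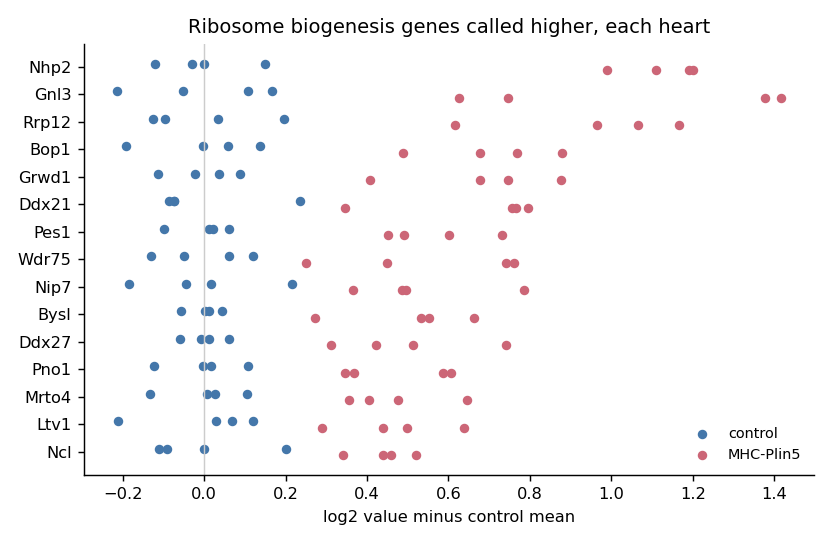
Log2 value minus the control mean in each heart for the 15 ribosome biogenesis genes called higher. No MHC-Plin5 heart overlaps the controls in any of them, and Nhp2 has a difference of 1.12. The genes were picked by their calls in these same hearts, which favours groups that lie apart, so the lack of overlap adds no support.

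Eef1a1, the general elongation factor that brings transfer RNAs to the ribosome, was 1.79-fold higher, the 1 called gene among 23 measured genes of elongation and ribosome-associated proteins, with 0 called lower, against 2.08% and 1.17% of all genes. It had a mean of 13.63 ± 0.16 in MHC-Plin5 and of 12.79 ± 0.24 in control hearts (SD, n = 4 each), with no overlap (log2 difference 0.84, SE 0.13, limma adjusted p = 0.00838). Eef1a2, its form of muscle and neurons, had a difference of -0.04 (SE 0.09, adjusted p = 0.876). Eef1a2 lay between 12.03 and 12.15 in control hearts and between 11.93 and 12.11 in MHC-Plin5 hearts, so the groups overlapped. Eef2, which moves the ribosome along, had 0.28 (SE 0.09, adjusted p = 0.136). Fau, whose product includes a small subunit protein, had 0.14 and was not called. The median over the list was 0.14. The count of called genes was 3 without MHC-Plin5 4.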

How the data were processed

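Heart RNA (Qiagen kit) was amplified and biotin-labelled with WT kits, per the labels' protocols. The values are on the log2 scale, as deposited by the authors. The submitters' processing notes name RMA and Affymetrix Expression Console. No version is given there. RMA adjusts arrays to each other, so values are relative. Depth has no meaning for arrays, and 4 arrays per group limit the precision. GEO's platform annotation gave 1 symbol to 21789 of 35556 rows, several to 1621 and none to 12146; the highest-mean row was kept per gene (19938 genes). All 61 members matched the RefSeq table by gene ID.

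Each gene was fitted with lmFit and eBayes of limma 3.58.1 in R 4.3.3, genotype the only term, two-sided, with Benjamini-Hochberg adjustment over all genes, and called at an adjusted p under 0.05. Rows with several symbols were fitted with all rows. A positive difference means a higher value in MHC-Plin5 hearts. The fit was tested on simulated data. Members and lists were chosen with earlier results of these data known. Named genes follow a rule: called members, the 5 highest and 5 lowest differences per subunit, the paralogue forms, up to 8 called genes of each related list, and Plin5, Fau, Eef1a1 and Eef1a2. Further genes, among them Wdr12, Eef2 and those sharing a row, were named after their values were seen. Plots were made with Python 3.11.15 and matplotlib 3.10.9. Alternatives were filters at a mean of 5 or 7, quantile normalization, median centring, an intensity trend, array weights, row means, every row, array median, heart number as a block, each heart left out and other thresholds or tests. Limma p-values weigh a group difference only against the spread between these hearts, with variances moderated over all genes. Exact permutation p-values rank the observed grouping among all groupings of these hearts. The labels name no batch. Hearts were treated as unpaired. Correlations of deviations between hearts of the same number were 0.19, 0.03, -0.11 and -0.04, which shows no clear pairing but cannot exclude it.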

Additional observations from a re-analysis of the deposited data

Results flagged for a closer look

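Single hearts stood apart from the other 3 of their group in 10 of the 80 groups of 4 hearts examined (a gap to the nearest heart above Dixon's critical value). Chance flags about 1 in 20 groups. Rpl3l lay at 10.23 in control 4, below the other controls and towards the MHC-Plin5 hearts. Rps27l lay at 10.88, Rpl14 at 6.92 and Rpl39l at 3.49 in control 1, each the lowest control. Rps2 lay at 13.05 and Rpl30 at 5.67 in MHC-Plin5 4, each the highest of its group. Rpl38 lay at 11.29 and Eef1a2 at 11.93 in MHC-Plin5 3, each the lowest of its group. Ddx21 lay at 8.97 in control 2, the highest control, and at 9.08 in MHC-Plin5 1, the lowest MHC-Plin5 heart.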

How the results depend on the processing

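Rpl3l stayed lower in the 13 settings that gave it another difference, and the Rpl3 row higher in 15, but their calls moved. Most of these settings leave hearts out. Since all MHC-Plin5 hearts lay below all controls in Rpl3l, leaving hearts out could not turn its direction. Thresholds and tests that leave the difference as it is say nothing of its direction. Rpl3l (-2.70) was not called at an adjusted p under 0.01 (0.0172), with an intensity trend and robust variances (0.0768) or with a test of unequal variances per gene (0.313); with single hearts left out its difference ran from -3.21 to -2.24. The Rpl3 row was called at an adjusted p under 0.1 (0.88), with a filter at a mean of 7 (0.88, adjusted p = 0.0414) and with array weights (1.02, adjusted p = 0.0216); with single hearts left out it ran from 0.77 to 1.07.

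Ribosomal protein genes called higher, 2 in the report, numbered 4 at an adjusted p under 0.1, with a filter at a mean of 7, median centring, an intensity trend or the array median as a covariate, and 5 with array weights. When every row was its own feature, 6 rows were called higher, some of them of the same gene. The genes called higher numbered 1 with the heart number as a replicate block and 1 without the 2 arrays of highest median. This last alternative was added after the data were seen, as was the highest-mean row of all 7 naming Rpl3 (0.87). They numbered 0 at an adjusted p under 0.01, with unequal variances and for the general proteins with Fau, and 0 to 2 with single hearts left out. Members called lower, 1 in the report, numbered 0 at 0.01, with an intensity trend, with unequal variances and for the general proteins, and 0 to 1 with single hearts left out.

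In the fit over all rows of the table, also added after the data were seen, members called higher and lower numbered 0 each. Rpl3l stood at -2.70 (adjusted p = 0.0636), and 6 biogenesis genes were called higher in their highest-mean row. Biogenesis genes called higher, 15 in the report, numbered 27 at 0.1, 3 at 0.01, 23 with a filter at 7, 35 with array weights, 1 with unequal variances and 5 to 24 with single hearts left out. Over the whole series, genes called higher numbered 415 in the report, 522 of 8899 with a filter at 7 and 884 with array weights. They numbered 23 with unequal variances and 170 to 614 with single hearts left out. Elongation genes called higher numbered 2 at 0.1, with a filter at 7, an intensity trend or the array median, 5 with array weights, 0 with unequal variances and 1 to 3 with single hearts left out. Among small differences, Rplp2 turned to -0.022 with quantile normalization, Rps19 to 0.0031 with median centring and 0.0060 with the array median, and Rpl10l to -0.17 with the array median. Rpl36 turned to 0.039 with array weights, 0.011 with row means and 0.050 without the 2 arrays of highest median. With single hearts left out, Rps19 ran from -0.051 to 0.058, Rps29 from -0.034 to 0.17, Rpl36 from -0.061 to 0.026, Rplp2 from -0.034 to 0.075, Rpl30 from -0.023 to 0.076 and Rpl10l from -0.19 to 0.25. The cause of these shifts was not tested. The subunit medians moved by less than the spread between hearts under all settings with a value. The within-heart difference of Rpl3l and Rpl3 was not computed with array weights, the block, an intensity trend or the array median. With the replicate block, where it is not known that hearts of the same number belong together, Rpl3l stayed called (adjusted p = 0.0213). Rps27l (0.0686) and Bysl (0.0584) did not, and 11 biogenesis genes were called.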

Other observations

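Within the 14 rows of Rps12, the member with the most rows, differences ran from 0.43 to 0.51, and 8 of these rows were identical to another in every heart. Rps28 had differences from 0.50 to 0.57 over 7 rows, and Rpl28, at the other end, from 0.04 to 0.06 over 5 rows. The 2 rows of Rps4l differed more, with 0.63 and 0.95, and those of Rps9 gave 0.18 and 0.39. Over all 217 rows of the members 210 had a positive difference, with a median of 0.20. When each row with 1 symbol was its own feature, the 6 rows called higher were both rows of Rps4l, 2 of Rps28, 1 of Rps12 and 1 of Rps27l. Over all rows of the table, with several symbols or none included, 0 of these 217 rows were called in either direction by limma. Rps19 had a difference of -0.01 in its own row, while a row naming Rps19 and Rps19-ps3 had 0.39 (limma adjusted p = 0.13 over all rows, not called), with no overlap between the groups.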
